A study of Homo sapiens with 30 samples.

Results

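OCI-LY19 is a cell line from a diffuse large B cell lymphoma (DLBCL), and its untreated transcriptome was set against those of 3 other DLBCL lines, OCI-LY3, HT and SUDHL5. The libraries were chosen by their labels alone: 3 untreated (0 h) OCI-LY19 libraries and 9 untreated libraries of the other lines, 12 of the 30 in the series. All 4 lines are labelled wild type, are said to have come from a cell bank with their identity checked by short tandem repeat profiling, and carried no drug at 0 h. OCI-LY3 and HT were grown with 20% serum and OCI-LY19 and SUDHL5 with 15%, so OCI-LY19 shared its serum percentage with SUDHL5. Each line is 1 patient's tumour, so a difference from OCI-LY19 describes that line and not a class of lymphomas. The same lines exposed for 24 h to 0.2 µM doxorubicin, a topoisomerase II poison used against lymphoma, and OCI-LY19S, a further drug-free culture of the line, are used below for comparison only.

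A B cell starts in the bone marrow, where the recombinase proteins RAG1 and RAG2 cut the immunoglobulin genes, terminal transferase (DNTT) adds bases to the cut ends, and a surrogate light chain of VPREB1 and IGLL1 stands in until a light chain is made. A mature B cell shuts these genes down, carries the antigen receptor with CD79A and CD79B, and may enter a germinal center, where the repressor BCL6 holds the programme and the receptor genes are mutated. DLBCL arises from germinal center or later B cells, and OCI-LY3 is usually classed with the activated B cell type and the other lines with the germinal center type.

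Levels are FPKM, reads scaled by gene length and by library size. Read totals recovered from the steps in the values were 25630629 to 35270765 in the OCI-LY19 libraries and 21785426 to 30749594 in the other 9, and 12835 to 13290 genes reached 1 FPKM in OCI-LY19 against 11950 to 13136 elsewhere. The SUDHL5 replicates stood closer together than the others, with a mean chi-square per gene of 1.92 to 2.26 between pairs against 7.88 to 28.3 within the other lines. Nothing shows that these replicates came from separate cultures beyond the labels' word, so the p-values measure the spread between these libraries. All 8 B cell markers reached 1 FPKM in every untreated library, with a summed level of 634.2 to 689.1 FPKM in OCI-LY19, 1889 to 2212 in OCI-LY3, 1504 to 1583 in HT and 1819 to 1846 in SUDHL5. IRF4, the factor by which the activated B cell type is usually recognised, was at 0.039 to 0.399 FPKM in OCI-LY3, so those libraries do not carry that mark of their usual class.

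Differences are given on the scale log2(FPKM + 1), which understates the change of genes near 0, as OCI-LY19 minus the other line. A gene was called when OCI-LY19 differed in 1 direction from each of the 3 lines, with the largest of the 3 limma p-values adjusted by Benjamini-Hochberg over all 17645 genes tested and below 0.05, and its printed difference is the one from the nearest line with its standard error. By this rule 2791 genes (15.8%) were higher in OCI-LY19 than in each other line and 1772 (10%) were lower, of which 956 (5.42%) and 520 (2.95%) stood at least 2-fold from the nearest line. By correlation OCI-LY19 was the outlying line over the genes tested: the line means of log2 levels correlated at r = 0.835, 0.818 and 0.797 with OCI-LY3, HT and SUDHL5, and at 0.865 to 0.89 among those 3. The share of genes at least 2-fold apart was 19.6%, 21.3% and 25.1% from these lines, and 16.3% to 19.5% among them. By that share OCI-LY19 was hardly farther from OCI-LY3 than OCI-LY3 was from SUDHL5 (19.5%). Against single lines, 37% of genes were higher and 25.8% lower than in OCI-LY3, 28.6% and 35.8% than in HT, 38.8% and 32.1% than in SUDHL5, and 35.2% and 34% than the mean of the 3 line means. All 3 OCI-LY19 libraries lay above all 9 others for 18.2% of genes and below them for 12.6%. The correlations and 2-fold shares run across genes of the same libraries and are a description only. Genes high in OCI-LY19 alone can pass the level filter (1 FPKM in 3 libraries) through it, which favours higher calls in the lists below. The lists were also chosen with earlier results of these data known, so their shares are a description.

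The recombination and surrogate light chain genes held some of the widest gaps between OCI-LY19 and the other lines. Of 14 tested members of the early B cell list, 7 were higher than in each line and 1 was lower, against 15.8% and 10% of all genes, and the median difference from the mean of the other lines was 4.08 against 0.01 over all genes. Of 15 listed members 14 passed the level filter (1 FPKM in 3 libraries). A member can do so through OCI-LY19 alone, which favours higher calls and a higher median. DNTT stood at 90.9, 121 and 175 FPKM in the OCI-LY19 libraries and at no more than 0.433 in any other, a difference of 6.58 ± 0.27 from SUDHL5 (limma, adjusted p = 4.8e-14). RAG1 read 62.9, 59.1 and 71.4 FPKM against at most 0.184 elsewhere, a difference of 5.81 ± 0.14 (adjusted p = 2e-17). RAG2 read 37.1, 34.9 and 36.6 FPKM against at most 0.174. Both subunits of the recombinase and the enzyme that works with it were abundant in all 3 OCI-LY19 libraries and near 0 in all 9 others. In these bulk libraries a change in the share of cells that express a gene and a change in its RNA per cell cannot be told apart. VPREB1 read 141, 153 and 184 FPKM, and the highest other library, OCI-LY3 replicate 3, had 2.89 (difference 6.11 ± 0.33, adjusted p = 4.3e-12). IGLL1, the partner of VPREB1, was not particular to OCI-LY19: it read 377, 636 and 511 FPKM there and 326, 310 and 344 in HT, and the difference of 0.60 ± 0.47 did not pass (adjusted p = 0.59, though 0.0113 with the 4 untreated groups alone). OCI-LY3 and SUDHL5 had IGLL1 at 0.0436 to 2.29 FPKM.

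The start regions of these genes were unlike in base composition, which is shown for 4 of them because they moved together. The 250 bases before the RefSeq start (GRCh38.p14, read on the gene's own strand, 5′ to 3′) are printed with CG dinucleotides in capitals. RAG1 (chr11:36510103-36510352, plus strand) held 25 and RAG2 (chr11:36598237-36598486, minus strand), its neighbour on chromosome 11, held 0. DNTT (chr10:96304184-96304433, plus strand) held 3 and VPREB1 (chr22:22244536-22244785, plus strand) held 8, against a median of 11 over 35116 such windows. The median was 21 over the 10311 windows found for genes tested here, so RAG1 was nearer to that median than the other 3 genes.
RAG1: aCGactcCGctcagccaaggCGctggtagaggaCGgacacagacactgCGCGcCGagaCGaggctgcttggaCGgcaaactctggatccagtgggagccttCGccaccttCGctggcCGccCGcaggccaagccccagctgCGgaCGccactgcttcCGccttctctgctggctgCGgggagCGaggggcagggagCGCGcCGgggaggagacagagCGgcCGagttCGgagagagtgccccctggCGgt
RAG2: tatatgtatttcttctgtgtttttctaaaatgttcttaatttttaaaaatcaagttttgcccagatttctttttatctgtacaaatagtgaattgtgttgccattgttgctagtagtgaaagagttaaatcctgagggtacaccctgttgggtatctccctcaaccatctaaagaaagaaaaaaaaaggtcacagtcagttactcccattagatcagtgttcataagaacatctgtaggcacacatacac
DNTT: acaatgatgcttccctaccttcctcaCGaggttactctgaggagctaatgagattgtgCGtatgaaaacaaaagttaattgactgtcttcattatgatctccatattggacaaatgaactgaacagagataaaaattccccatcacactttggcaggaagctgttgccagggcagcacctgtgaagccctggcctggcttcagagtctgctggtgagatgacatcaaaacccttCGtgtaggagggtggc
VPREB1: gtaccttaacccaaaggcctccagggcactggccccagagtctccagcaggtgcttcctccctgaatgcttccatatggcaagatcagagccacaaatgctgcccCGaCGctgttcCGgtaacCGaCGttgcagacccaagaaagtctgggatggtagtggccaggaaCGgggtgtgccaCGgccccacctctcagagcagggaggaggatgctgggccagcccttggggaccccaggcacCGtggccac

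Transcription factors of blood and B cell progenitors were high beside them. MYB, a factor of dividing progenitors, read 59, 61.4 and 75.4 FPKM against 0.201 to 2.94 in the other lines, a difference of 4.15 ± 0.15 (limma, adjusted p = 4.8e-15). SOX4 read 53.7, 57.4 and 58.9 FPKM against at most 4.93, and the ETS factor ERG read 3.29, 3.65 and 4.92 against at most 0.0271. No library of another line came near OCI-LY19 in these 3 genes. EBF1, which commits cells to the B lineage, read 41.8, 35.7 and 41.4 FPKM, above 21.5 to 23.3 in HT and the lower values of the other lines (difference 0.81 ± 0.08). ID3, an inhibitor of E proteins, read 124, 195 and 160 FPKM against 25.2 to 88.4. VPREB3 was the 1 called gene of the early list that was lower, at 13.9 to 18.6 FPKM against 32.4 to 490.

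**Figure D1:**
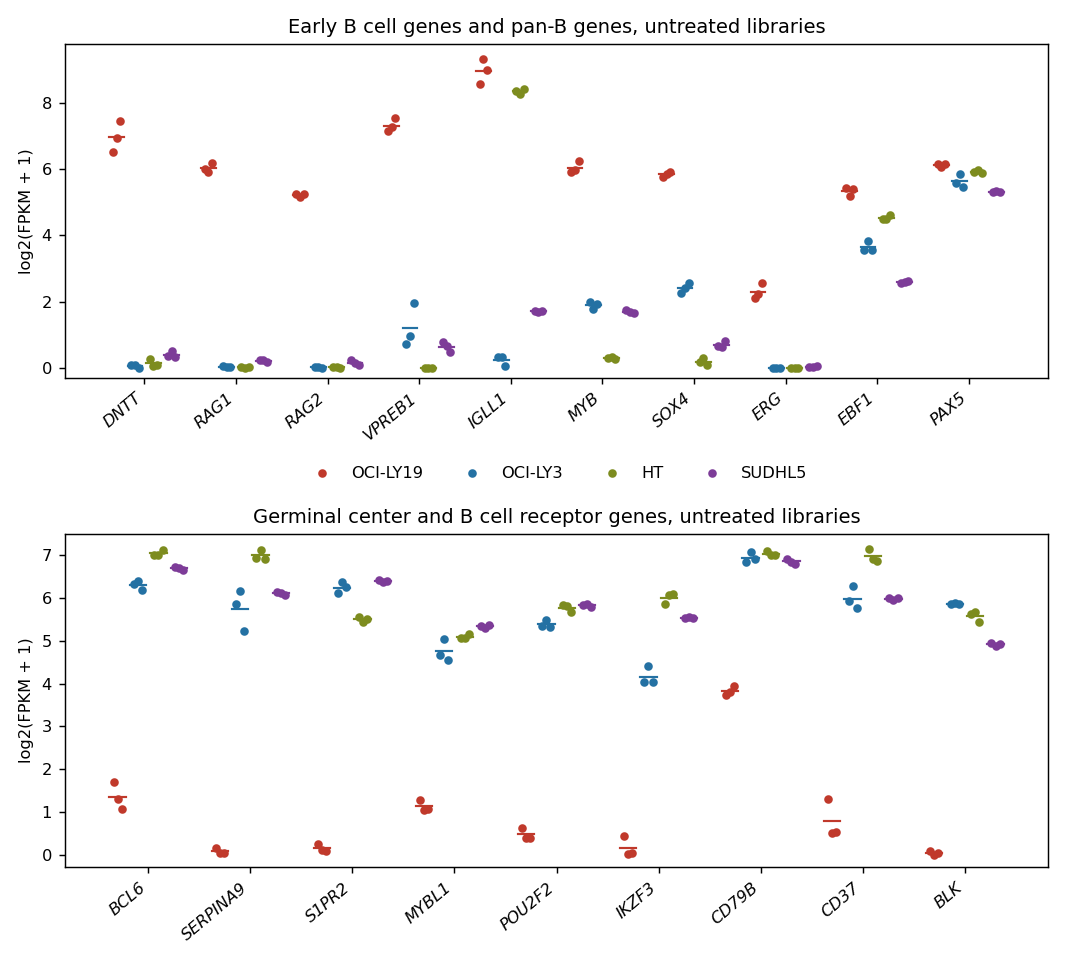
Level of early B cell, pan-B, germinal center and receptor genes in each of the 12 untreated libraries, as log2(FPKM + 1); dots are libraries, short lines are means of 3 and colours are lines. DNTT, RAG1, RAG2 and VPREB1 are high in OCI-LY19 alone, IGLL1 is also high in HT, and BCL6 to BLK are low in OCI-LY19 and high in the other lines.

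The germinal center list was low in OCI-LY19. Of 18 tested members, 12 were lower than in each line and 1 was higher, against 10% and 15.8% of all genes, with a median difference from the mean of the other lines of -2.26. BCL6 read 2.22, 1.48 and 1.08 FPKM in OCI-LY19 and 71.4 to 138 in the other 9 libraries, a difference of -4.95 ± 0.12 (limma, adjusted p = 1.6e-17). SERPINA9, a protease inhibitor typical of germinal center B cells, read 0.111, 0.0305 and 0.03 FPKM against 36.2 to 138. S1PR2, the receptor that keeps B cells inside the germinal center, read 0.187, 0.075 and 0.0631 FPKM against 42.7 to 85. These 3 genes separated OCI-LY19 from every other library with wide gaps. RGS13 read 0.388 to 0.924 FPKM against 27.5 to 53, and MYBL1 read 1.06 to 1.44 against 22.4 to 40.6.

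Not all genes of the list followed. MME, which encodes the surface marker CD10, read 15.9, 15.4 and 19.8 FPKM and overlapped HT and SUDHL5, and CD38 at 14.3 to 15.2 FPKM lay between HT at 9.77 to 10.2 and OCI-LY3 at 24.5 to 28. LMO2, a LIM-domain cofactor, was the 1 higher member, at 12, 16.6 and 16.4 FPKM against at most 4.54 (difference 1.58 ± 0.16). The windows before 2 genes that are near 0 in OCI-LY19 are printed because their base composition again differs widely. S1PR2 (chr19:10231332-10231581, minus strand) held 27 CG dinucleotides, here in capitals, and SERPINA9 (chr14:94476198-94476447, minus strand) held 1. In the SERPINA9 window the capitals mark 2 copies of the octamer ATTTGCAT, a motif that was searched on both strands and that 1.63% of all 35116 windows hold.
S1PR2: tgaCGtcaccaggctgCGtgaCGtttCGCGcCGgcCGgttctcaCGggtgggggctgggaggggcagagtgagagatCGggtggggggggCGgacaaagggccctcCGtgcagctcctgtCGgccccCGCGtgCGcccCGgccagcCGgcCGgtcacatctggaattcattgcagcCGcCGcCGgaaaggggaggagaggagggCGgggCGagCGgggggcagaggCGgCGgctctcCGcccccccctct
SERPINA9: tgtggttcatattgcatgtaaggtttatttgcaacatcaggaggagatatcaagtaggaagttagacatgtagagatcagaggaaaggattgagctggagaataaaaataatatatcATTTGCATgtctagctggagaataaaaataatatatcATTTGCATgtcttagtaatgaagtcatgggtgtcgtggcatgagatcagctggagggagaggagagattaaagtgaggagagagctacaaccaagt
A matching run of letters is a description of the sequence and not evidence of binding.

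POU2F2, the octamer-binding factor OCT2 of B cells, read 0.547, 0.318 and 0.309 FPKM in OCI-LY19 against 39.1 to 56.7, a difference of -4.91 ± 0.12 (limma, adjusted p = 1.2e-17). It led a list of 16 B lineage factors of which 9 were lower and 2 (EBF1 and ID3) higher, against 10% and 15.8% of all genes. IKZF3, which encodes Aiolos, read 0.353, 0.0077 and 0.0265 FPKM against 15.3 to 67, and the ETS factor SPIB read 3.12, 2.05 and 1.73 against 15.4 to 32. IKZF1, FOXO1, SPI1, IRF8, ETS1 and POU2AF1 were also lower, by 0.73 to 1.99. PAX5, which maintains B cell identity, did not pass: it read 70.1, 66.5 and 70.7 FPKM, above all 9 other libraries at 38.4 to 61.9, with a difference of 0.21 ± 0.10 (adjusted p = 0.20, but 0.0152 under median-of-ratios scaling).

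The antigen receptor and its signalling chain were low as well. Of 24 receptor signalling genes, 11 were lower and 2 higher, against 10% and 15.8% of all genes. CD79B read 12.3, 12.9 and 14.5 FPKM against 111 to 135 (difference -3.03 ± 0.15), and CD79A read 171, 155 and 154 against 509 to 701 (-1.81 ± 0.09). BLK, a SRC-family kinase of B cells, was at 0 to 0.0694 FPKM against 28.5 to 58.3. LYN, SYK and PLCG2 were lower by 1.49, 0.82 and 0.95. INPP5D, a phosphatase that damps the signal, went the other way, at 50.3 to 54.6 against 22.3 to 34.4.

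The immunoglobulin chains themselves differed line by line, and counts of these genes depend on how reads from near-identical segments were assigned. IGHM was at 0 to 0.197 FPKM in OCI-LY19 and 0 to 0.223 in OCI-LY3, but at 303 to 320 in HT and 863 to 887 in SUDHL5. IGHG2 was found in OCI-LY19, at 33.5, 37.7 and 36.9 FPKM, against at most 0.0986 elsewhere. IGKC read 17.5 to 19.2 FPKM in OCI-LY19, above SUDHL5 at 0 to 0.145 and far below OCI-LY3 and HT at 1897 to 3091. JCHAIN, which joins secreted antibody units, read 0.147, 0.202 and 0.322 FPKM against 81.9 to 423, the largest negative difference among the named genes at -6.10 ± 0.10 (limma, adjusted p = 5.3e-20).

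Surface antigens used as therapy targets divided. Of 15 tested, 6 were lower and 3 higher, against 10% and 15.8% of all genes. CD37, a tetraspanin, read 1.48, 0.431 and 0.442 FPKM in OCI-LY19 and 53.4 to 140 in the others (difference -5.20 ± 0.17). MS4A1, which encodes CD20, read 35.6, 29 and 20.9 FPKM, below SUDHL5 at 43.8 to 46.5 and far below OCI-LY3 at 323 to 455. CD22, CD27 and CD40 were lower by 1.10, 2.30 and 1.63. CD24 and CD47 were among the higher members, with CD24 at 104, 115 and 123 FPKM against at most 49.6.

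**Figure D2:**
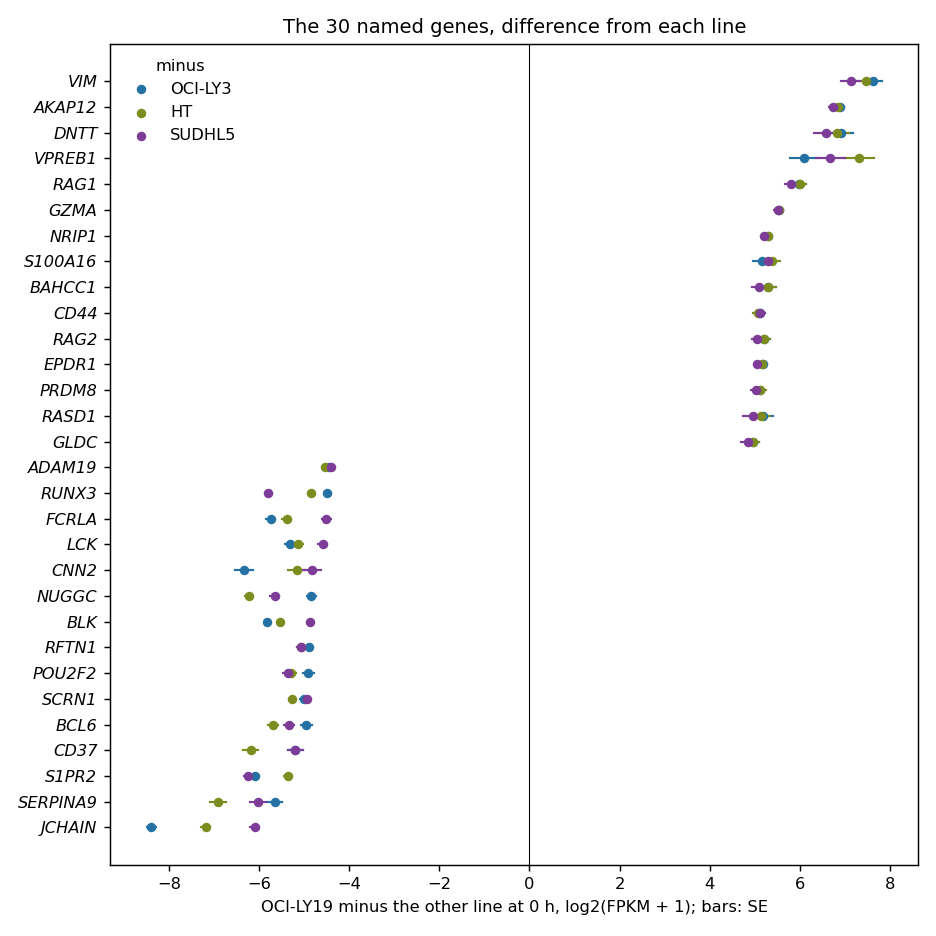
Difference of OCI-LY19 from each other line at 0 h on the log2(FPKM + 1) scale for the 15 higher and 15 lower genes chosen by size; dots are differences from the line in the colour shown and bars are standard errors. The choice of genes requires the 3 dots of a gene to lie on the same side of 0. The differences run from 4.84 (GLDC) to 7.13 (VIM) above the nearest line and from 4.40 (ADAM19) to 6.10 (JCHAIN) below it.

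The 15 higher genes with the largest differences from the nearest line held many genes of no B cell list. VIM, the intermediate filament vimentin, read 220.4, 251.9 and 188.2 FPKM in OCI-LY19 and at most 0.618 in any other library (difference 7.13 ± 0.20, limma adjusted p = 2.1e-16). AKAP12, a scaffold for protein kinase A, read 125, 116 and 128 FPKM against at most 0.215. GZMA, a protease of cytotoxic granules, read 41, 42.1 and 55.5 FPKM, while 8 of the other 9 libraries listed it at 0. In all 3 genes a transcript that was close to absent from the other lines was abundant in each OCI-LY19 library. CD44, the hyaluronan receptor, read 34.3 to 42.8 FPKM against at most 0.239. NRIP1, a nuclear receptor corepressor, read 36.8 to 40.9 against at most 0.0939, and S100A16, BAHCC1, EPDR1, PRDM8, RASD1 and GLDC, the glycine decarboxylase, read 27.1 to 49.8 against at most 0.696.

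Among the 15 lower genes, those outside the lists were RFTN1, NUGGC, FCRLA, RUNX3, ADAM19, CNN2 and SCRN1. RFTN1, a lipid raft protein, read 3.03, 1.91 and 2.38 FPKM against 93.4 to 120. FCRLA, an Fc receptor-like protein of germinal center B cells, read 2.74, 1.83 and 1.8 against 68.6 to 173. NUGGC, a nuclear GTPase of germinal center B cells, read 0.465 to 0.753 against 43.5 to 124, and RUNX3, a Runt-family factor, read 0.0158 to 0.173 against 21.4 to 60.2. The rule that named these genes asks for no overlap with the other 9 libraries, so their separation follows from the choice.

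Taking genes at 5 FPKM or more in every library of one side and at 0.1 or less in every library of the other, 31 of 19807 protein-coding genes were on in OCI-LY19 alone and 10 were off in OCI-LY19 alone. The 31 included the matricellular gene CCN2 at 12.4 to 25.5 FPKM, the guanylate-binding GTPase GBP4 at 16.9 to 18.2, IGFBP2 at 12.9 to 16.1 and the cation channel TRPM2 at 12.7 to 13.9. The 10 included BLK, PLD4, ABI3, SCRN1, RASGRP3, PTPRS, FAM167A, KCNN3 and ABCA7. ABI3, an actin regulator, was at 0 to 0.0749 FPKM against 15.2 to 62.4. RASGRP3, which activates RAS below the antigen receptor, was at 0.0357 to 0.0712 against 6.95 to 61.9.

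Some marker genes of other blood cells were also called. GZMA, ZAP70 (11.4 to 16.7 FPKM against at most 0.114) and NKG7 (6.74 to 7.41 against at most 1.21) were the 3 higher genes among 11 tested T and NK cell markers. LCK was lower, at 0.149 to 0.586 against 29.1 to 64.2. Over all genes 15.8% were higher and 10% lower, so the share lower was near the background. Only 11 of the 22 markers passed the level filter (1 FPKM in 3 libraries). GZMA did so through OCI-LY19 libraries alone, and ZAP70 reached 1 FPKM in no untreated library of another line, so the set of tested markers favours higher calls. The defining T cell markers CD3D, CD3E, CD3G and CD4 were at 0 in all 3 OCI-LY19 libraries. TRAC, the T cell receptor alpha constant gene, was not: it averaged 18.9 ± 2.31 FPKM (SD, n = 3) in OCI-LY19, 4.41 in OCI-LY3, 3.62 in HT and 112.3 in SUDHL5, and was not called. The 22 T and NK markers summed to 82.64 to 91.93 FPKM in OCI-LY19, between HT at 49.99 to 53.28 and SUDHL5 at 197.8 to 205.3. Of 20 myeloid markers 7 passed the filter, and 4 of these were higher: CEBPD, LYZ, CSF1R and VCAN. At 0 h CEBPD, LYZ and CSF1R averaged 47.13, 4.324 and 2.862 FPKM in OCI-LY19 and less than 1 in each other line. A marker can thus enter the count by being high in OCI-LY19, so the share of 7 is not set against that of all genes. CEBPD, a C/EBP-family factor, varied most, at 13.9, 100 and 27.2 FPKM in OCI-LY19 against at most 1.01 elsewhere, and it set most of the myeloid sum of 25 to 107.7 FPKM, against at most 10.01 in any library of the other lines. MPO and CEBPA did not pass the filter but lay above all 9 others. MPO read 0.576 to 0.841 FPKM against at most 0.0333, and CEBPA 0.354 to 0.795 against at most 0.075. FCN1 was at 0 in every OCI-LY19 library and at no more than 0.789 elsewhere. S100A9, ELANE and FCGR3A were at 0 in every untreated library of all the lines, so their zeros do not set OCI-LY19 apart.

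Of 19 tested activated B cell and plasmablast genes, 8 were higher and 2 (PIM1 and FUT8) lower, against 15.8% and 10% of all genes, with a median difference of 0.93 from the mean of the other lines. The share lower was thus near that of all genes. XBP1, the factor of antibody secretion, read 64.2, 80.7 and 73.2 FPKM against at most 25.6 (difference 1.54 ± 0.13, limma adjusted p = 5.2e-09). PRDM1, which encodes BLIMP1, read 5.24, 3.99 and 4.82 FPKM against at most 0.134, and IRF4 read 2.98, 2.79 and 3.99 against at most 0.399. Levels of PRDM1 and IRF4 were thus low in OCI-LY19 but close to 0 in the other 9 libraries.

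The NF-kB lists were uneven. Among 14 non-canonical components 7 were lower and 1 higher, against 10% and 15.8% of all genes. NFKB2 read 3.28, 3.73 and 2.35 FPKM, below OCI-LY3 at 4.73 to 6.59 and SUDHL5 at 56.4 to 58.7. BIRC3, a ubiquitin ligase of the pathway, read 0.0727 to 0.162 FPKM against 2.46 to 81. LTB, a lymphotoxin chain, read 0.0999 to 0.314 against 2.49 to 52.7. RELB was lower by 0.46 ± 0.13 from HT (adjusted p = 0.012), but its libraries overlapped those of HT and it did not pass without HT replicate 1 or 2 or OCI-LY19 replicate 1 or 3 (0.052 to 0.0975). MAP3K14 and TRAF3 did not pass in these data (adjusted p = 0.24 and 0.92). TNFSF13B, the cytokine BAFF, was the 1 higher member, at 1.76 to 2.78 FPKM against at most 0.0745. Among 21 canonical components 5 were higher and 3 lower, with IKBKB higher by 1.07 ± 0.08 and TNIP1 lower by 0.75.

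Antigen presentation divided by class. Of 16 class I genes, 9 were higher in OCI-LY19 and 0 lower, and of 15 class II genes 5 were lower and 0 higher. Over all genes 15.8% were higher and 10% lower. The zeros were not clean by library: 2 class I genes lay below all 9 others and 1 class II gene above them, without being called. Over all genes 12.6% lay below and 18.2% above. At an unadjusted limma p under 0.05, 1 class I gene was lower and 1 class II gene higher, and limma-voom on reads recovered from the FPKM steps called 1 and 0. Median-of-ratios scaling also called 1 class I gene lower, and quantile normalization and the TPM scale each called 1 class II gene higher. HLA-B at 88.5 to 110 and HLA-C at 90.1 to 131 FPKM lay above all 9 others. NLRC5, the activator of class I genes, read 12.5, 11.2 and 9.93 FPKM against at most 1.29, and B2M, the shared class I chain, read 98.7 to 102 against 29.7 to 52.1. Reads of these variable genes are counted against 1 reference allele, so part of a difference between lines may lie in the alleles, which was not tested. In class II, HLA-DMA read 3.79 to 4.06 FPKM against 18.1 to 33.9 and HLA-DMB 0.0592 to 0.178 against 1.94 to 3.43. HLA-DRA at 80.9 to 89.8 FPKM lay above HT at 61.9 to 76.8 and below the other 2 lines at 397 to 433, and CIITA and CD74 did not pass.

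**Figure D3:**
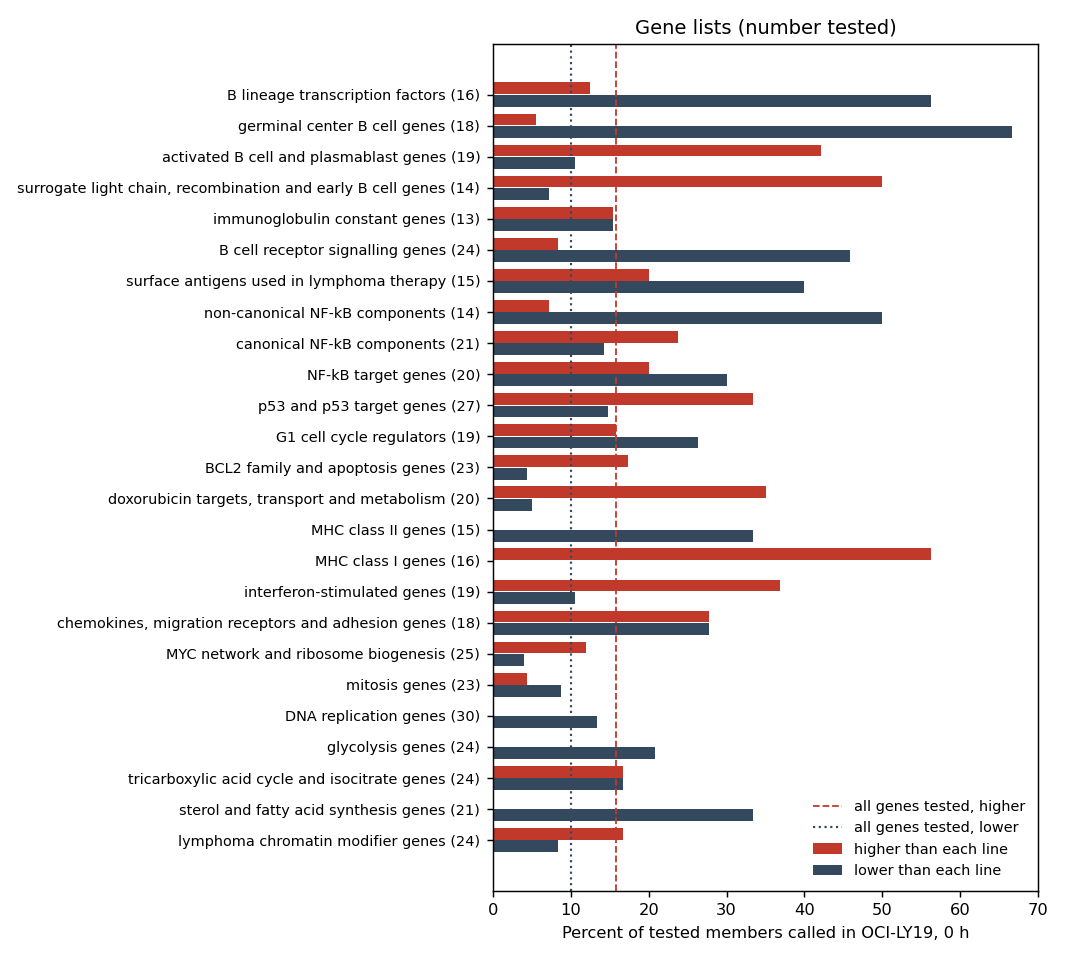
Percent of tested members of each gene list called higher (red) or lower (dark) in untreated OCI-LY19 than in each other line, without the marker lists of other cell types; numbers in parentheses are members tested, and the dashed and dotted lines are the shares over all genes, 15.8% and 10%. Of the lists drawn, early B cell genes (50%) and class I genes (56.25%) have the highest shares of higher calls, and germinal center genes (66.67%) the highest share of lower calls. The lists were chosen with earlier results of these data known, so the shares and their order are a description only.

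The p53 list had 9 of 27 tested members higher and 4 lower before any drug, against 15.8% and 10% of all genes, so its share lower was near the background. CDKN1A, the p21 cell cycle inhibitor, read 26.2, 24.9 and 20.4 FPKM, above SUDHL5 at 12.8 to 13.6 and OCI-LY3 and HT at no more than 1.21 (difference 0.80 ± 0.16, limma adjusted p = 0.0005). SESN1, a stress-induced sestrin, read 27.6, 24.4 and 18.7 against at most 4.15. MDM2, a ubiquitin ligase of the pathway, read 14.3, 10.8 and 12.4 against 5.96 to 10.3 (difference 0.38 ± 0.10, adjusted p = 0.0053, and 0.0503 without OCI-LY19 replicate 1). BTG2, an antiproliferative gene, was far lower, at 6.2, 5.83 and 6.4 FPKM against 66.4 to 151, and RRM2B read 5.43 to 7.44 against 22.8 to 36.6.

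Among 19 G1 regulators 5 were lower and 3 higher, against 10% and 15.8% of all genes, so the share higher was that of all genes. The neighbours CDKN2A and MTAP on chromosome 9 were both close to 0: CDKN2A, which encodes p16 and ARF, read 0.0786, 0.0541 and 0.0177 FPKM against 2.43 to 16.3, and MTAP, an enzyme of methionine salvage, read 0.0234, 0 and 0.00264 against 3.06 to 5.67. CDKN2B, next to them, was at 0 to 0.0142 FPKM in OCI-LY19 but at no more than 0.677 in any line. CDKN2D was lower by 1.35 ± 0.18. BCL2 read 22.6, 21.9 and 21.4 FPKM in OCI-LY19 and 18.2 to 24 in OCI-LY3 (difference 0.02 ± 0.09, adjusted p = 1) against 0.158 to 0.331 in HT and SUDHL5. Of 23 apoptosis genes 4 were higher, near the share of all genes, and 1, BCL2L11, was lower (by 0.54 ± 0.11).

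Of 20 tested genes of doxorubicin action and metabolism, 7 were higher and 1 lower, against 15.8% and 10% of all genes. These 20 of 24 listed genes passed the level filter (1 FPKM in 3 libraries). A gene can do so through OCI-LY19 alone, which favours higher calls. TOP2B, a topoisomerase II that the drug poisons, read 221, 220 and 268 FPKM against 133 to 137 in SUDHL5 and 55.5 to 94.9 in the other lines (difference 0.80 ± 0.11, limma adjusted p = 6.5e-06), while TOP2A at 92.2 to 122 FPKM overlapped the other lines. SLFN11, which blocks stressed replication forks, read 36.5, 34.2 and 34.7 FPKM against 17.9 to 18.4 in SUDHL5 and at most 0.0458 in OCI-LY3 and HT. NQO1, a quinone reductase, read 37.9, 23.1 and 18.9 against at most 4.5. The reductases CBR3 (2.61 to 4.65 FPKM) and AKR1C3 (0.784 to 1.36) were listed at 0 in 8 of the other 9 libraries each. GSTP1, a glutathione transferase, was the 1 lower gene, at 184 to 198 FPKM against 243 to 446.

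In the tricarboxylic acid cycle list some enzymes stood far apart. IDH2, the mitochondrial isocitrate dehydrogenase, read 59.9, 82.9 and 79 FPKM against 14.9 to 16.6 in SUDHL5 and less in the other lines (difference 2.16 ± 0.17, limma adjusted p = 2.4e-09). FH, fumarate hydratase, read 78.6, 80.6 and 89 FPKM against 16.3 to 28.8, and SUCLG2, a succinate-CoA ligase subunit, read 32.4 to 35.9 against 8.21 to 14.4. The list as a whole had 4 of 24 members higher and 4 lower, against 15.8% and 10% of all genes. Glycolysis had 0 higher and 5 of 24 lower, led by the enolase ENO2 at 2.94 to 4.35 FPKM against 17.9 to 142. Sterol and fatty acid synthesis had 0 higher and 7 of 21 lower, with SREBF1 at 2.02 to 3.82 FPKM against 7.49 to 16.2. MYC read 169, 161 and 190 FPKM, above OCI-LY3 at 115 to 131 and the other lines at 21.5 to 48.6, but did not pass (difference 0.48 ± 0.18, adjusted p = 0.053). It passed under 6 other settings (0.0113 to 0.0424). Mitosis, with 1 higher and 2 lower of 23, and DNA replication, with 0 higher and 4 lower of 30, stayed near or below the shares of all genes. For the counts of 0 higher, an unadjusted limma p under 0.05 was reached by 0 glycolysis, 1 sterol and fatty acid synthesis and 0 DNA replication genes, and limma-voom on recovered reads called 0 in each list. Quantile normalization and the TPM scale each called 1 sterol and fatty acid synthesis gene higher.

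Of 18 adhesion and migration genes, 5 were higher and 5 lower, against 15.8% and 10% of all genes. CCR7, the receptor that draws cells to lymph node T zones, read 14.9, 18.4 and 18.9 FPKM against at most 0.491, and S1PR4 read 26.4, 55.6 and 41.5 against at most 0.64. CXCR5, which draws B cells to follicles, read 1.51 to 2.08 FPKM against 4.25 to 21.2. The integrin chains ITGAL (0.335 to 0.469 FPKM against 9.15 to 33.5) and ITGB7 (1.03 to 1.28 against 7.93 to 49.7) were lower too. CXCR4 at 17.9 to 23.2 FPKM overlapped OCI-LY3.

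Called genes were spread over all chromosomes but not evenly. The share of genes higher than in each line ran from 6.222% on chromosome 19 to 23.73% on chromosome 1, against 15.8% of all genes, and the share lower from 6.075% on chromosome 10 to 16.05% on chromosome 12, against 10%. Over 11467 tested protein-coding genes in order of position (hg38), 55 runs of at least 4 neighbours were all higher and 19 were all lower. The longest run held 17 genes on chromosome 8 (chr8:120380761-124580648), from MRPL13 through ATAD2 and FBXO32 to NDUFB9, each higher by 0.45 to 1.91. The next held 13 genes on chromosome 1 (chr1:236518000-244452134), from LGALS8 through FH and EXO1 to ADSS2, higher by 0.32 to 2.96. A run of 7 on chromosome 1 (chr1:89006666-89936611) was the guanylate-binding protein genes GBP1 to GBP4 with 3 neighbouring LRRC8 genes. DNA copy number was not measured here, and no chance level was set for the length of a run.

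**Figure D4:**
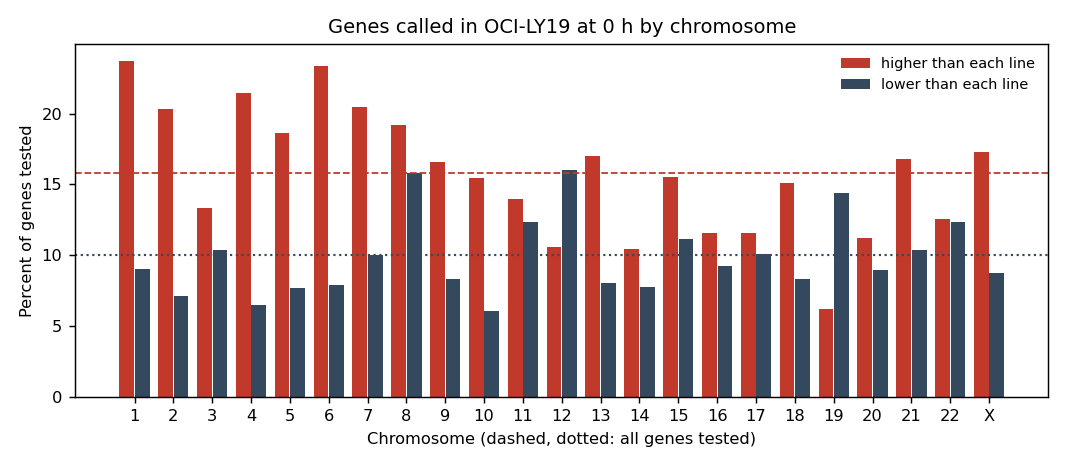
Percent of tested genes called higher (red) or lower (dark) in untreated OCI-LY19 than in each other line, by chromosome; the dashed and dotted lines are the shares over all genes, 15.8% and 10%. Chromosomes 1 and 6 have the highest shares of higher calls (23.73% and 23.35%) and chromosome 19 the lowest (6.222%).

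After 24 h of doxorubicin in every line, most of the differences were found again. Of the 2791 genes higher at 0 h, 2025 (72.6%) were higher than in each line at 24 h, where 19.8% of all genes were, and 1308 (73.8%) of the 1772 lower genes were lower, where 14.2% of all genes were. Of the 2791 and 1772 genes, 6 and 16 were called the opposite way. Of those at least 2-fold apart at 0 h, 883 of 956 and 466 of 520 were called the same way. Drug and time change together in these libraries. The size of the difference from the mean of the other lines itself changed for many genes: it became more positive for 23% and more negative for 24.4% of all genes.

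RASD1, a RAS-like GTPase, lost most of its difference: it read 27.1, 49.8 and 36.7 FPKM at 0 h and 1.48, 3.54 and 1.14 at 24 h, and the difference from the other lines shrank by 3.78 ± 0.24 (limma, adjusted p = 3.2e-10). The gap also narrowed for the early B cell genes VPREB1, RAG1, RAG2 and DNTT. These genes were picked for wide gaps at 0 h, and the change is measured from the same 0 h values, so the choice favours narrowing. At 24 h VPREB1 read 34, 75.5 and 32 FPKM, RAG1 19, 31.1 and 18.6 and RAG2 11.1, 18.2 and 10.8, each above every line's 24 h mean, the highest of which were 2.4, 0.353 and 0.208. CD44 read 129, 110 and 123 FPKM at 24 h and its gap widened by 1.59 ± 0.13. POU2F2 read 5.48, 4.36 and 6.8 FPKM and its gap narrowed by 2.36 ± 0.13, but it stayed below the other lines' means of 27.1 to 112. BCL6 stayed at 1.6 to 2.27 FPKM while the other lines' means were 22.9 to 76.1, and VIM stayed at 286 to 354.

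**Figure D5:**
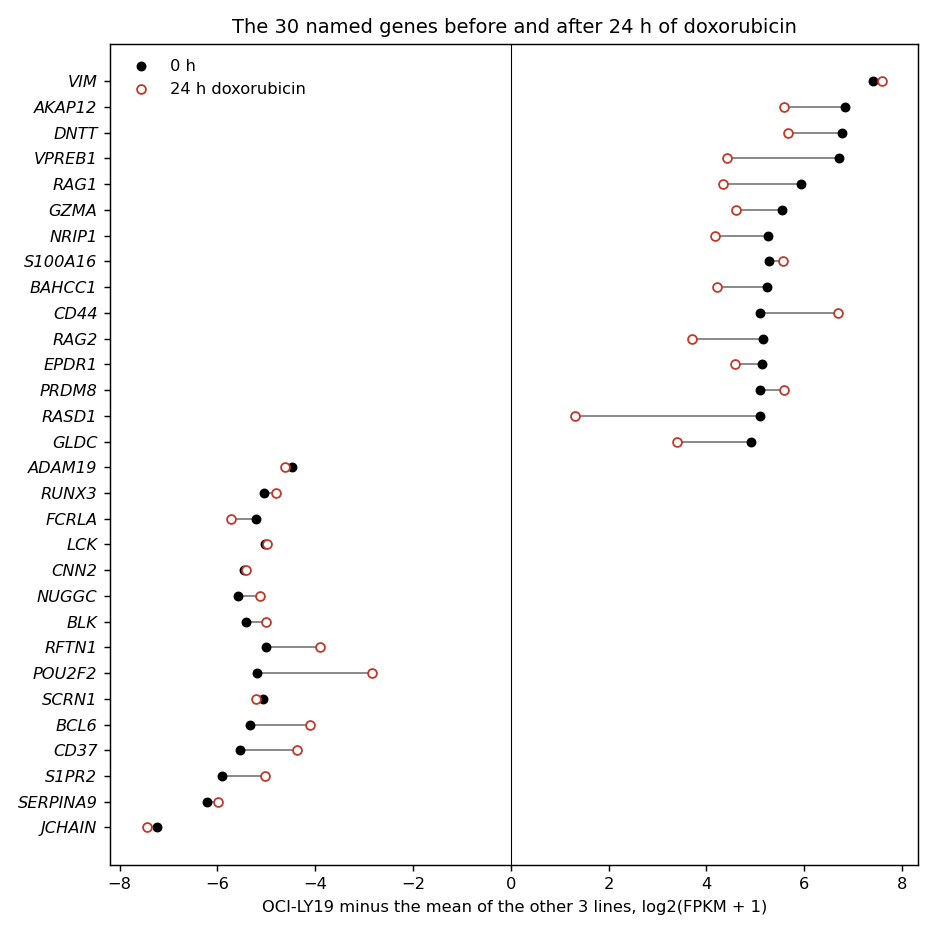
Difference of OCI-LY19 from the mean of the other 3 lines at 0 h (filled) and after 24 h of doxorubicin (open) for the 30 named genes, on the log2(FPKM + 1) scale. All 30 keep their side of 0, and RASD1 (by 3.78), POU2F2 (by 2.36) and VPREB1 (by 2.29) move farthest.

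OCI-LY19S, the other drug-free culture of the line, was tabulated and normalised apart, so its values are set beside these without a test. There DNTT read 203, 103 and 77.7 FPKM, RAG1 52.2, 53.8 and 47.4, VPREB1 283, 310 and 219, and VIM 221, 185 and 171. BCL6 read 0.89 to 1.35 FPKM, CD37 0.0701 to 0.183 and SERPINA9 0.114 to 0.213. These 7 genes were high or low as in OCI-LY19. Of the 31 genes on in OCI-LY19 alone, 23 had a mean of at least 5 FPKM in OCI-LY19S and 8 did not, with ELFN1 at 1.38 FPKM against 18.5 in OCI-LY19 and CSGALNACT1 at 2.15 against 7.66. GZMA was at 12.2 against 46.2 FPKM. Of the 10 genes off in OCI-LY19 alone, 7 had a mean of at most 0.1 FPKM there. CEBPD had a mean of 237 FPKM there against 47.1 in untreated OCI-LY19.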

How the data were processed

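Each untreated line was sampled in 3 libraries of poly(A) RNA, prepared with a strand-marking kit and sequenced on a NextSeq instrument, per the labels' protocols. Per the submitters' processing notes, reads were processed with Trimmomatic, STAR and featureCounts on hg38. No version of these tools, annotation release or strandedness of the counting is given in the sources used here. FPKM values for 60656 genes were deposited by the authors. For genes with an annotated length of the same ID version, 100% of values above 0 were whole multiples of 1 read's worth within 0.01 read. Read counts were therefore recovered for an alternative test. For 18975 genes the length was itself solved so that the values came out whole, which is no check, and 1 gene was not solved.

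From the FPKM, log2(FPKM + 1) was computed for 17645 genes at 1 FPKM or more in at least 3 of 24 libraries. The model was limma 3.58.1 (R 4.3.3) with a mean-dependent prior, over 8 groups (the 4 lines at 0 h and 24 h) with 16 residual degrees of freedom; tests were two-sided and the threshold was an adjusted p of 0.05. The procedure was tested on simulated data. In those data the other lines shared the same means and all libraries the same spread setting. The simulation thus does not show how the rule behaves on lines that differ from each other. Named genes were the 15 with the largest difference from the nearest line in each direction (protein-coding, not immunoglobulin, T cell receptor or HLA, no overlap, mean of at least 10 FPKM on the high side), up to 3 called genes of each list and direction, genes of known importance, and genes on or off in OCI-LY19 alone. The members and lists were chosen with earlier results of these data known. Values of some genes that this rule names are not reported here. Libraries were not paired by replicate number in the model. Between lines, correlations of deviations at the same replicate number were -0.17 to 0.27. Pairs of unlike number were not set beside them, so they do not settle whether libraries were paired. Column names of OCI-LY3, HT and OCI-LY19 share prefixes that mostly follow the replicate number, and a block by prefix was not tried. Symbols matched 60494 of 60656 IDs. Promoter windows came from RefSeq (GRCh38.p14); windows existed for fewer than 80% of called genes (1822 of 2791 higher and 1196 of 1772 lower), so a comparison of base composition between the sets is void. Pseudocount, filter, scaling, tool, block, name suffix and left-out libraries or lines were varied.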

Additional observations from a re-analysis of the deposited data

Results flagged for a closer look

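The genes below are those among the 30 named by size and the genes on or off in OCI-LY19 alone whose difference from the mean of the other lines was not the same at 0 h and after 24 h of doxorubicin (limma interaction contrast, adjusted p below 0.05; values are the 24 h difference minus the 0 h difference on the log2 scale). A negative value means that OCI-LY19 stood less far above, or farther below, the other lines at 24 h. The genes were chosen for wide 0 h differences, which the value subtracts, so the choice favours narrowing. Such changes were common: 23% of all genes tested were more positive at 24 h and 24.4% more negative.

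Among genes higher in OCI-LY19, the gap narrowed for RASD1 by -3.78, for the early B cell genes VPREB1, RAG1, RAG2 and DNTT by -2.29, -1.60, -1.45 and -1.10, for CCN2 and GLDC by -1.55 and -1.53, for AKAP12, NRIP1 and BAHCC1 by -1.25, -1.09 and -1.03, and for ELFN1, GZMA, POGLUT3 and EPDR1 by -0.959, -0.929, -0.718 and -0.553. It widened for CD44 (1.59), PRDM8 (0.499) and MARVELD1 (0.583).

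Among genes lower in OCI-LY19, the gap narrowed for POU2F2 by 2.36, for BCL6 by 1.22, for CD37 and RFTN1 by 1.17 and 1.11, for S1PR2 by 0.873, for FAM167A by 0.714, for NUGGC and BLK by 0.457 and 0.408, and for ABI3 and RUNX3 by 0.340 and 0.247. It widened for ABCA7 (-0.716) and FCRLA (-0.505). Either side of the comparison can move such a value: BCL6 averaged 1.83 FPKM in OCI-LY19 at 24 h, while in OCI-LY3 it averaged 22.9 FPKM at 24 h and 71.4 to 83.7 in the untreated libraries.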

How the results depend on the processing

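No called named gene changed direction under any of the 21 other settings that tested it; 8 of the 183 named genes were not tested with the filter of 5 FPKM. Of 159 named genes called, 147 stayed called wherever tested, and of 24 not called 19 stayed so. With a filter of 5 FPKM in 3 libraries, fewer genes were tested and the counts fell to 1767 genes higher than each line, 4116 higher than OCI-LY3, 3293 higher than HT, 3729 lower than SUDHL5, and 4039 higher and 3974 lower than the mean of the 3 lines. Under it 2477 differences were more positive at 24 h than at 0 h. Without the OCI-LY3 line 3146 genes were lower than both remaining lines, and without SUDHL5 2715, since fewer lines have to be passed. Leaving out 1 untreated library at a time gave 2504 to 2747 genes higher and 1580 to 1743 lower. The replicate block gave 2799 higher and 1791 lower; MYC passed with it (adjusted p = 0.0327), and no other named gene's call changed. By scaling, the share of calls that were higher was 61.2% as reported, 57.2% after quantile normalization, 58.5% with median-of-ratios scaling and 60.8% on the TPM scale. The TPM scale moved the median of all genes against SUDHL5 from 0.064 to 0.21, so differences from SUDHL5 are relative to that shift. Of 224 counts by list, direction and setting (3 scalings and voom), 18 moved over 1.5 times, 8 of them by more than 1 gene. Under median-of-ratios scaling these were higher apoptosis genes (2 against 4), lower replication genes (2 against 4) and lower glycolysis genes (3 against 5). Under quantile normalization they were lower replication genes (1 against 4) and higher MYC network genes (5 against 3). On the TPM scale they were higher canonical NF-kB genes (3 against 5) and lower tricarboxylic acid cycle genes (1 against 4), and with voom lower immunoglobulin constant genes (4 against 2). SUDHL5 libraries all carry 1 name suffix, so that covariate was tried on the other lines only, for the comparisons with OCI-LY3 and HT. Against OCI-LY3 and HT, line and serum percentage cannot be told apart, and against SUDHL5, which had the same percentage, line and name suffix cannot.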

Other observations

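Interferon-stimulated genes did not move as 1 block in untreated OCI-LY19. Of 19 tested, 7 were higher than in each other line and 2 lower, against 15.8% and 10% of all genes. Only these 19 of 25 members with values passed the level filter (1 FPKM in 3 libraries). XAF1 did so through OCI-LY19 libraries alone, so the set of tested members favours higher calls. XAF1, an apoptosis-linked interferon-induced gene, read 5.74, 5.95 and 5.25 FPKM against at most 0.0689 in the other lines, and IFI44 read 1.88 to 3.23 against at most 0.0568. ISG15, the ubiquitin-like modifier and one of the most common interferon-induced transcripts, was lower, at 3.06 to 3.18 FPKM against 13.5 to 24.1, as was BST2 at 43.5 to 52.9 against 89 to 120. The 2 directions occurred in the same 3 libraries, with no overlap with the other 9 for any of these 4 genes.

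Among 24 chromatin genes mutated or targeted in lymphoma, 4 were higher and 2 lower, about the shares of all genes (15.8% and 10%). DNMT3A, a DNA methyltransferase, read 4.78, 4.88 and 5.36 FPKM against at most 0.411 (difference 2.14 ± 0.08, limma adjusted p = 1.2e-14). HDAC1, a histone deacetylase, read 38.5 to 43.2 against 104 to 209, and SMARCB1, a chromatin remodeling subunit, 6.16 to 6.39 against 12 to 18.8. EZH2, the H3K27 methyltransferase of germinal center B cells, read 33.9 to 36.2 FPKM and overlapped OCI-LY3 at 34.5 to 39.7.

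Against the same shares, of 20 NF-kB target genes 4 were higher and 6 lower, and of 25 MYC network and ribosome genes 3 were higher and 1 lower. Of 20 stromal, epithelial and endothelial markers 5 were tested, with 2 higher and 1 lower against the same shares. A marker can pass the filter through OCI-LY19 alone, which favours higher calls. The 20 markers summed to 4.968 to 8.706 FPKM in OCI-LY19.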
